A study of Homo sapiens with 8 samples.

Results

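The delayed lasting sites are 4653 places in the genome of T47D-MTVL cells where the progesterone receptor (PR) was listed at 30, 60 and 360 min of hormone, but neither before hormone nor at 5 min. They were found by merging 5 lists of PR sites wherever sites shared 1 bp or more. This gave 43784 merged sites, of which the delayed lasting sites were 10.6%. They were chosen by the PR lists themselves (presence at 3 times, absence at 2), so that share is a description and carries no test.

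PR is a steroid receptor of the nuclear receptor family. When progestin enters the cell, the receptor binds DNA mainly as a dimer at palindromic hormone response elements, and many of its sites lie in enhancers far from promoters. Enhancers carry histone H3 monomethylated at lysine 4 (H3K4me1), active promoters carry the trimethylated form (H3K4me3), and RNA polymerase II marks transcribed genes. In the breast epithelium PR drives growth and side branching of the ducts, partly through secreted factors that act on neighbouring cells.

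T47D-MTVL cells derive from a human luminal breast cancer and hold an integrated reporter gene under the mouse mammary tumour virus promoter. PR was precipitated by chromatin immunoprecipitation with sequencing from unstimulated cells (0 min) and from cells given 10 nM of the synthetic progestin R5020 for 5, 30, 60 or 360 min. H3K4me1, H3K4me3 and RNA polymerase II were mapped in unstimulated cells. All cells were held in charcoal-treated serum and then without serum before the experiment, and each of the 8 groups had 1 sample. The 5 PR lists held 844, 22973, 25872, 24436 and 23841 sites in order of time. The read depths of the libraries are unknown, so a site's absence at 5 min may lie in that library or in the cells, and these cannot be told apart. No p-value was computed, because sites of 1 library are not replicates. The 95% intervals below are exact (Clopper-Pearson) and cover counting error over sites only.

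Within a delayed lasting site, the sites listed at 30, 60 and 360 min lay close together. The rule joins sites that overlap, which favours such closeness. These distances were not computed for other classes of PR sites. A single site stood at each of the 3 times in 4570 of the 4653, and 83 held several sites at 1 or more times. In 4565 of the 4570 the 3 sites shared a common stretch, with a median length of 233 bp. The midpoints at 30 and 60 min lay a median of 25 bp apart, those at 60 and 360 min 23 bp, and those at 30 and 360 min 21.5 bp. In 90% of cases the first 2 distances were at most 82 bp and 78.5 bp. Merged widths ran from 129 to 1249 bp with a median of 366 bp (quartiles 307 and 450 bp), and together these sites covered 1.82 Mb.

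In the lists of 30, 60 and 360 min, these sites made up 18.1%, 19.2% and 19.7% of the entries. They were of about average width for each list. At 30 min their median width was 282 bp (quartiles 241 and 345 bp) against 285 bp for the whole list. At 60 min it was 320 bp (267 and 399 bp) against 313 bp. At 360 min it was 273 bp (231 and 337 bp) against 265 bp. Persistent sites, meaning the 10001 merged sites listed at all of 5, 30, 60 and 360 min but not at 0 min, were wider at each time, at 322, 326.5 and 291 bp. The gap in median width between persistent and delayed lasting sites was thus greatest at 30 min and small at 60 min. Among the delayed lasting sites with 1 site per time, 52.8% were widest, or tied for widest, in the 60 min list. For 30 min this share was 26.4%, and 21.5% for 360 min, with the 33 ties counted at each time they touch. As a whole, too, the sites listed at 60 min are the widest. Width is not a peak height, and the lists carry no height or score.

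**Figure D1:**
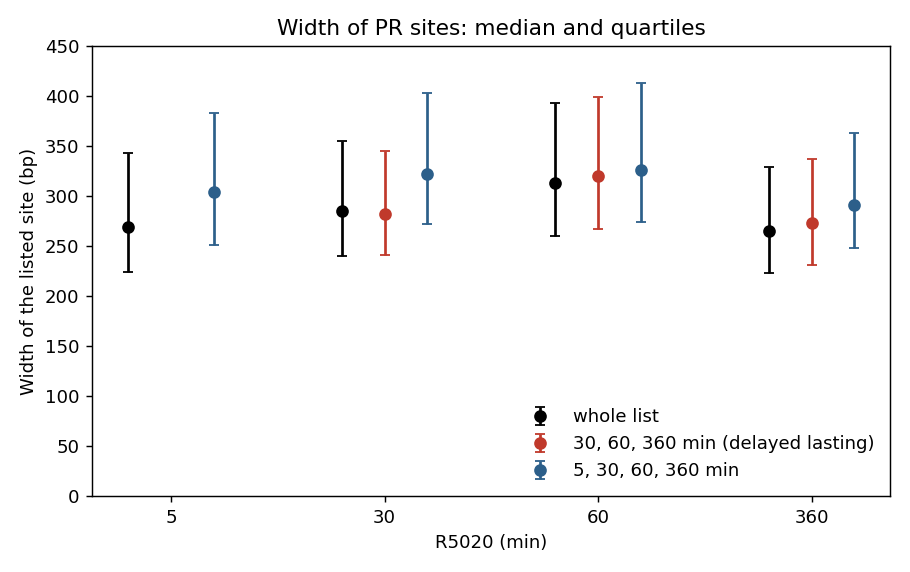
Median width in bp (points) with quartiles (bars) of PR sites listed at 5, 30, 60 and 360 min of R5020, for the whole list, the delayed lasting sites and the persistent sites. At 30 min the delayed lasting sites have a median of 282 bp and the persistent sites 322 bp, and at 60 min 320 and 326.5 bp.

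At the edge of the rule, the closest delayed lasting site lay 1 bp from a 5 min site (chr20:17855542-17855853). The next 4 lay 4 bp away, for example chr15:61685817-61686061 and chr5:58844545-58844817. Just outside the rule, the persistent site with the smallest overlap between its 5 min site and a later site was chr6:152190169-152190696, with 10 bp. It was followed by chr3:33213549-33214273 with 17 bp and chr6:116381075-116381697 with 42 bp. Few delayed lasting sites stood so near the limit. Within 0.2 kb of a 5 min site lay 107 of them (2.30%, 1.89 to 2.77%) and within 1 kb 389 (8.36%, 7.58 to 9.19%). The median distance to the nearest 5 min site was 23233 bp (quartiles 5876 and 70699 bp).

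Most delayed lasting sites lay in chromatin without any of the 3 features before hormone. Of the 4653, 2974 (63.9%, 62.5 to 65.3%) overlapped no H3K4me1, H3K4me3 or RNA polymerase II region, against 56.7% of all merged sites. H3K4me1 regions held 1630 of them (35.0%, 33.7 to 36.4%), against 42.1% of all merged sites. H3K4me3 regions held 141 (3.03%, 2.56 to 3.56%), against 4.10% of all merged sites. Polymerase regions overlapped 190 (4.08%, 3.53 to 4.69%), against 6.99% of all merged sites. The largest marked subset was H3K4me1 alone, the usual signature of an enhancer without polymerase, with 1435 sites (30.8%), against 34.8% of all merged sites. H3K4me1 with polymerase but without H3K4me3 was found at 85 sites (1.83%), against 3.99% of all merged sites. All 3 features together, as at active promoters, were found at 72 sites (1.55%), against 2.18% of all merged sites.

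The persistent sites differed on each of these shares by more than the counting intervals. H3K4me1 regions held 60.3% of them (59.3 to 61.2%), H3K4me3 regions 6.10% (5.64 to 6.59%) and RNA polymerase II regions 12.4% (11.8 to 13.1%). H3K4me1 alone was found at 47.3% of them, H3K4me1 with polymerase but no H3K4me3 at 7.88%, and all 3 at 3.43%. The difference in H3K4me1 share was 25.3 percentage points. It was present in each of 5 equal groups of sites by width at 60 min. In these groups the H3K4me1 share of delayed lasting sites ran from 33.4% to 38.1% and that of persistent sites from 58.6% to 65.6%. Median widths at 60 min were close, 320 bp against 326.5 bp, so this grouping could hardly change the difference. Sites were not grouped by width at 30 min, where the medians were 282 and 322 bp. In the narrowest group (101 to 263 bp) the shares were 38.1% (35.2 to 41.0%) and 59.6% (57.3 to 61.8%). In the widest (435 to 1142 bp) they were 35.5% (32.3 to 38.8%) and 65.6% (63.5 to 67.6%).

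The same contrast can be turned around. Among the 14654 merged sites listed at all of 30, 60 and 360 min and not at 0 min, 31.8% (31.0 to 32.5%) were not listed at 5 min. Outside H3K4me1 regions this share was 43.2% (42.1 to 44.4%), and inside them 21.3% (20.4 to 22.2%). In RNA polymerase II regions it was 13.2% (11.5 to 15.1%), and in H3K4me3 regions 18.8% (16.0 to 21.8%). It was lowest among the combinations computed at sites with H3K4me1 and polymerase but no H3K4me3, where 85 of 873 (9.74%, 7.85 to 11.9%) were not listed at 5 min. At sites with H3K4me1 alone it was 23.3% (22.2 to 24.3%), and at sites in none of the 3 kinds of region 43.7% (42.6 to 44.9%).

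The difference in H3K4me1 share was found for each combination of later times. Sites listed at 30 and 60 min only were in H3K4me1 regions in 35.9% of cases (33.8 to 38.1%), and those listed at 5, 30 and 60 min only in 54.0% (51.7 to 56.3%). The pattern of 60 and 360 min only had a share of 31.9% (29.8 to 34.1%), and with 5 min in addition it was 57.0% (51.9 to 61.9%). For 30 and 360 min the pair of shares was 31.2% (28.5 to 33.9%) and 52.4% (48.1 to 56.7%). Sites listed at 30 min alone, 60 min alone and 360 min alone had 32.0%, 36.7% and 26.5%, and those listed at 5 min and 1 of these had 50.2%, 54.4% and 51.3%. The 7 classes without 5 min thus spanned 26.5 to 36.7%, and the 7 with 5 min spanned 50.2 to 60.3%. The share of the delayed lasting sites, 35.0%, lay within the first range. These sites were listed at as many times as the sites of 5, 30 and 60 min. The part of the number of listed times in these shares was not tested. Each class without 5 min also had the smaller median merged width, for example 327 bp against 387 bp for 30 and 60 min. A merged width takes in the 5 min site where one is listed, so the merging itself favours this order. All 14 classes rest on the same 5 libraries, so they are not separate measurements of the 5 min library.

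**Figure D2:**
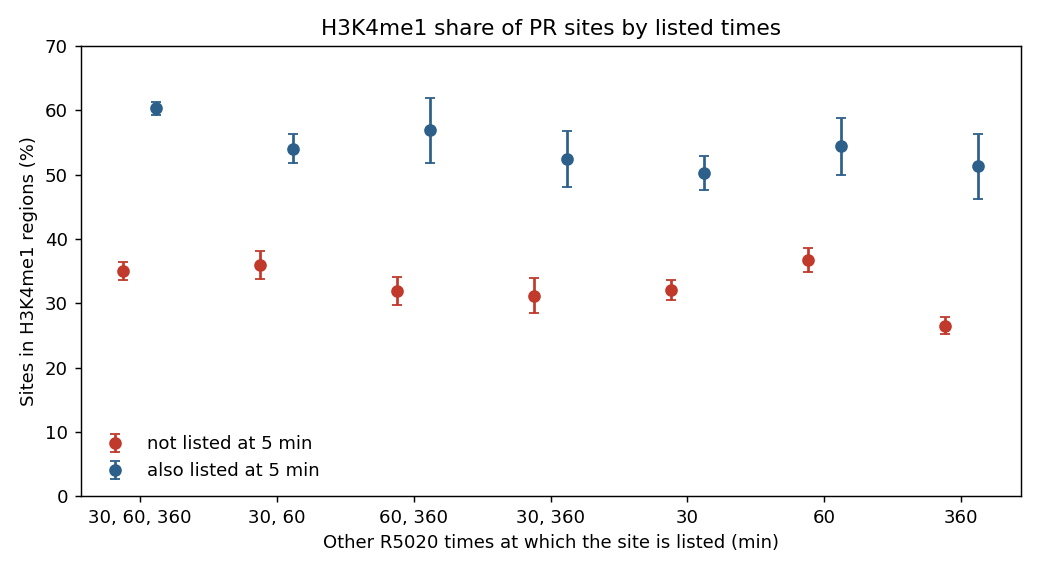
Share of merged PR sites overlapping an H3K4me1 region of unstimulated cells (%, points) with exact 95% intervals (bars), by the later times at which a site is listed, for sites not listed and also listed at 5 min. All 7 classes without 5 min lie between 26.5 and 36.7%, and the 7 with 5 min between 50.2 and 60.3%.

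For RNA polymerase II the same pairs had the same order, with 4.08% and 12.4% for the delayed lasting and persistent sites and 5.04% and 11.2% for sites of 30 and 60 min without and with 5 min. For 60 and 360 min the shares were 5.33% (4.36 to 6.46%) and 14.9% (11.6 to 18.9%). For 30 and 360 min they were 4.64% (3.50 to 6.03%) and 7.28% (5.22 to 9.81%), with intervals that overlap. For H3K4me3 some pairs had intervals apart and others did not. The delayed lasting and persistent sites had 3.03% and 6.10%. Sites of 60 and 360 min had 3.99% (3.14 to 4.98%) without and 9.28% (6.58 to 12.6%) with 5 min, and sites of 360 min 1.85% (1.48 to 2.30%) and 5.33% (3.33 to 8.03%). Intervals overlapped elsewhere: sites of 30 and 360 min had 3.06% (2.14 to 4.24%) and 3.17% (1.86 to 5.03%), sites of 30 and 60 min had 4.54% (3.67 to 5.54%) and 5.75% (4.74 to 6.89%), sites of 30 min 2.04% (1.61 to 2.54%) and 3.27% (2.40 to 4.35%), and sites of 60 min 5.97% (5.10 to 6.94%) and 6.63% (4.63 to 9.14%).

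The difference in H3K4me1 was greatest near the site. A H3K4me1 region covered the centre of 33.7% of the delayed lasting sites and of 58.7% of the persistent sites. At 1 kb to either side of the centre the shares were 28.3% and 50.2%, at 2 kb 24.0% and 39.7%, and at 5 kb 20.9% and 29.9%. At 10 kb they were 19.3% and 25.8%, and at 100 kb 16.2% and 18.4%. The sites of 60 and 360 min only followed nearly the same course as the delayed lasting sites, from 30.7% at the centre to 19.9% at 10 kb. The sites of 5, 30 and 60 min only started at 51.8% and came down to 21.6% at 10 kb. Of the 3023 delayed lasting sites outside H3K4me1 regions, 225 (7.44%, 6.53 to 8.44%) had such a region within 1 kb. Their median distance to the nearest one was 14518 bp. Neither value was computed for other classes of PR sites.

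**Figure D3:**
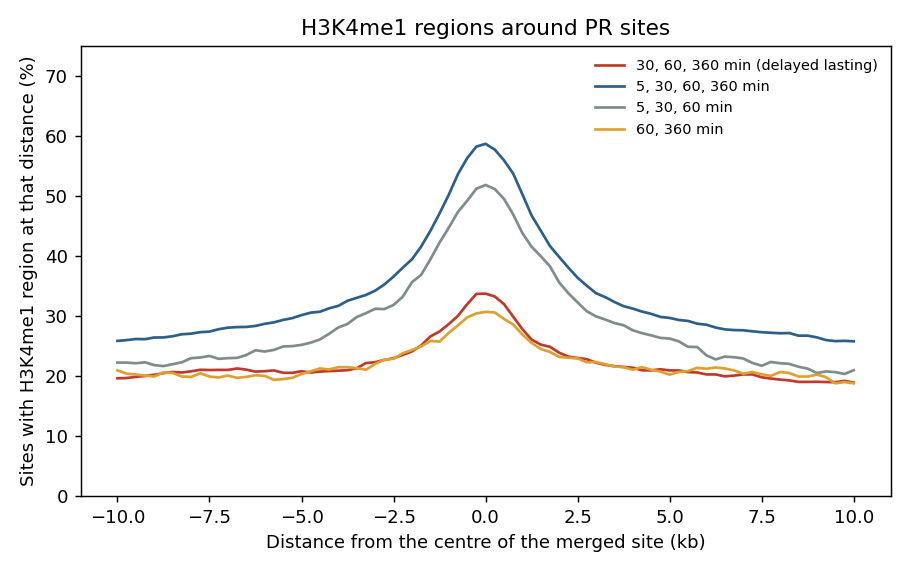
Share of merged PR sites (%) that have an H3K4me1 region of unstimulated cells at a given distance in kb from the site's centre, for 4 classes of sites named by the times that list them. The curve of the delayed lasting sites runs from 33.7% at the centre to about 19.3% at 10 kb, and that of the persistent sites from 58.7% to about 25.8%.

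The 1630 delayed lasting sites in H3K4me1 regions fell in 1543 such regions. These were wide, with a median of 3783 bp against 2124 bp over all 73263 H3K4me1 regions, and close to the 3765 bp of the 5100 regions that hold a persistent site. In 445 of the 1543 (28.8%, 26.6 to 31.2%) a 5 min site was listed elsewhere in the same region, against 12.1% of all H3K4me1 regions. Among the 1193 of these regions without a persistent site, 97 held a 5 min site (8.13%, 6.64 to 9.83%). A persistent site includes a 5 min site by definition, so the 8.13% and the 12.1% are not shares of like sets. The part of region width in the 28.8% was not tested. A region already holding a 5 min site contained 503 of the 1630 sites (30.9%, 28.6 to 33.2%), and a region with a persistent site contained 403 (24.7%, 22.6 to 26.9%). The other 1127 of the 1630 lay in H3K4me1 regions where no PR site was listed at 5 min. Shares of this kind were not computed for other PR sites in H3K4me1 regions.

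The median distance from a delayed lasting site to the nearest persistent site was 45764 bp, against 56102 bp over the 33783 merged sites that are not persistent. Within 10 kb, 1123 of the 4653 (24.1%, 22.9 to 25.4%) had one, against 22.0% (21.5 to 22.4%) of those 33783. This share was 37.2% (34.9 to 39.6%) for delayed lasting sites in H3K4me1 regions and 17.1% (15.7 to 18.5%) for those outside. The same split was not computed for other merged sites, so it is not shown to be particular to the delayed lasting sites. Sites of 5, 30 and 60 min only had a persistent site within 10 kb in 29.3% of cases (27.3 to 31.4%). For sites of 60 and 360 min only it was 22.4% (20.5 to 24.3%), an interval that overlaps that of the delayed lasting sites.

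All 23 chromosomes with delayed lasting sites, chromosomes 1 to 22 and X, showed the lower H3K4me1 share. The share of merged sites that were delayed lasting ran from 8.63% (7.80 to 9.52%) on chromosome 3 to 14.8% (12.2 to 17.7%) on chromosome 18, with 105 of 792 (13.3%) on chromosome X. H3K4me1 regions held 6.67% of the delayed lasting sites on chromosome X, 10.4% on chromosome 13, 10.5% on chromosome 2, 11.9% on chromosome 18 and 12.6% on chromosome 4. On chromosome 17 they held 61.8% (54.9 to 68.4%) and on chromosome 16 57.2% (49.5 to 64.7%). The persistent sites of the same chromosomes had 26.5%, 27.0%, 30.6%, 36.8%, 23.0%, 88.8% and 82.3% in the same order.

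The most crowded stretches held 6 delayed lasting sites within 100 kb. The search was set to stop at 5 such stretches that do not overlap. It took chromosomes in the text order of their names, so further stretches with 6 sites were not looked for. The 5 stretches lay at chr1:42288911-42341725, chr3:27370907-27402494, chr4:6763258-6787827, chr7:47488527-47557507 and chr16:89410314-89476189. They differed in chromatin: all 6 sites of the chromosome 4 and chromosome 16 stretches were in H3K4me1 regions, as were 5 on chromosome 7, 1 on chromosome 1 and 0 on chromosome 3. The chromosome 4 and chromosome 3 stretches are shown because they are the shortest of the 5 and sit at opposite ends of that range. They were chosen after their values were seen.

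On chromosome 4 the 6 sites spread over 24.6 kb. The site chr4:6765185-6765676 had widths of 420, 463 and 417 bp at the 3 times. In the authors' deposited table it had 264 reads before and 100 after R5020. The site chr4:6763258-6763583 also overlapped RNA polymerase II and H3K4me3 regions and went from 194 to 92 reads in the authors' deposited table. The last of the 6, chr4:6787440-6787827, had 75 and 92 reads in the authors' deposited table, the opposite order. On chromosome 3 the 6 sites spread over 31.6 kb, and none touched a region of the 3 chromatin lists. Their ratios of unstimulated to R5020 reads in the authors' deposited table were 1.2, 1.07, 0.93, 0.82, 1.01 and 1.3 in map order, on both sides of 1. The 6 ratios of the chromosome 4 stretch were 2.11, 2.64, 1.65, 1.47, 1.53 and 0.82 in the authors' deposited table.

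**Figure D4:**
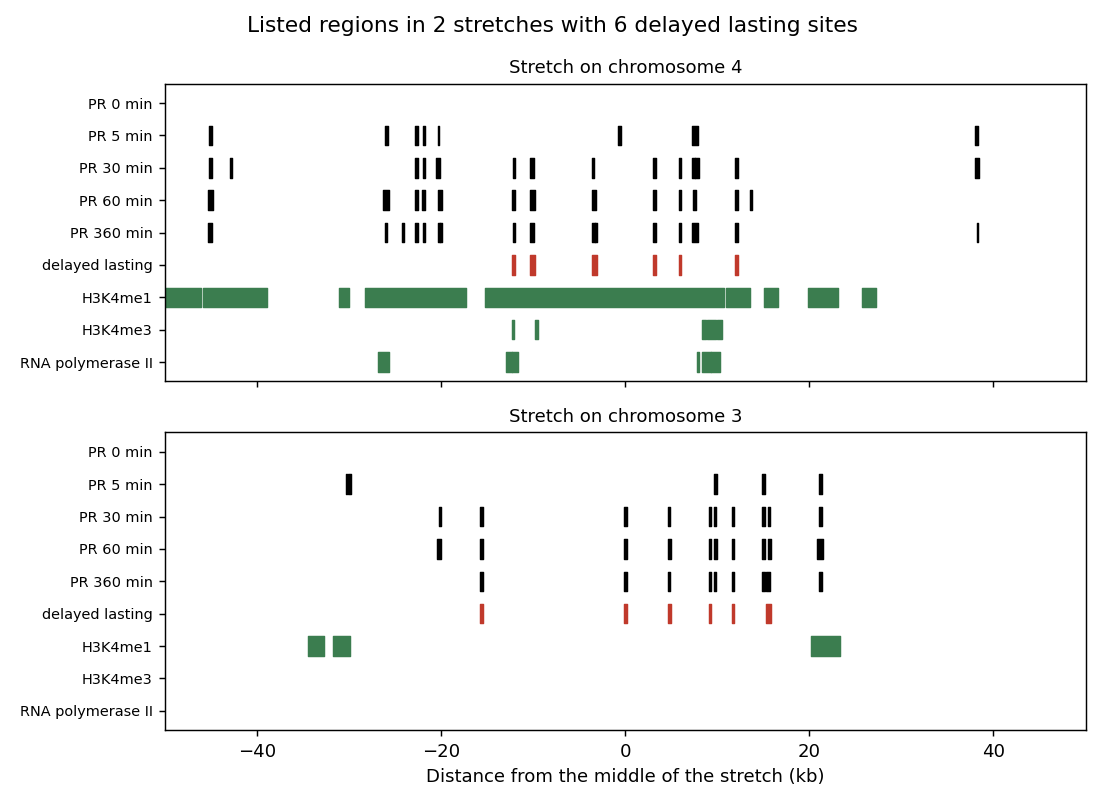
Listed regions within 50 kb of the middle of a stretch on chromosome 4 (upper) and one on chromosome 3 (lower), with distance in kb on the horizontal axis and 1 row per list, and the delayed lasting sites in red. On chromosome 4 all 6 delayed lasting sites lie in H3K4me1 regions, and on chromosome 3 none of the 6 does.

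Nucleosome-sized DNA at these sites was read from a table the authors made for the 60 min PR sites. Micrococcal nuclease (MNase) is an enzyme that cuts between nucleosomes, so that the DNA it leaves is mostly nucleosomal. The table gives normalized read numbers of that DNA in unstimulated and R5020-treated cells. A ratio above 1 means fewer reads after R5020. The delayed lasting sites held 4683 of the 24436 sites of that list. A change in scaling between those libraries shifts all ratios alike, so classes of sites are set beside each other.

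At the delayed lasting sites the median went from 98 normalized reads per site in unstimulated cells to 78 after R5020 in the authors' deposited table. Taken from the authors' deposited table, their ratio had a median of 1.25 (quartiles 1.02 and 1.53), against 1.29 over all 60 min sites and 1.39 (1.1 and 1.79) at persistent sites. The ratio in the authors' deposited table exceeded 1 at 3572 of the 4683 sites (76.3%), against 78.0% of all 60 min sites. The same table, the authors' deposited table, put 378 (8.07%) above 2, against 13.0% of all 60 min sites and 17.1% at persistent sites. Per 100 bp, the authors' deposited table gave 30.0 reads before and 24.0 after R5020 at delayed lasting sites, and 31.1 and 22.1 at persistent sites. Before hormone the order of these pooled values turned in some chromatin classes. The authors' deposited table had 26.2 at delayed lasting and 24.0 at persistent sites in none of the 3 kinds of region, and 36.4 and 35.4 in H3K4me1 alone. In RNA polymerase II or H3K4me3 regions the authors' deposited table had 38.0 and 38.5, the same order as the pooled values.

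Part of this gap went with the chromatin class of the sites. Where a 60 min site lay in none of the 3 kinds of region, the authors' deposited table gave median ratios of 1.16 for the 2995 delayed lasting sites and 1.17 for the 3916 persistent ones. In H3K4me1 alone the ratios in the authors' deposited table were 1.39 (quartiles 1.14 and 1.71) at 1450 sites and 1.47 (1.2 and 1.83) at 4931 sites. In RNA polymerase II or H3K4me3 regions they were 1.81 (1.44 and 2.40) at 238 sites and 1.97 (1.53 and 2.53) at 1457 sites, from the authors' deposited table. On the log2 scale the difference between persistent and delayed lasting sites was 0.15 over all sites. It was 0.01, 0.08 and 0.12 within the 3 classes in this order, with a mean of 0.07.

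**Figure D5:**
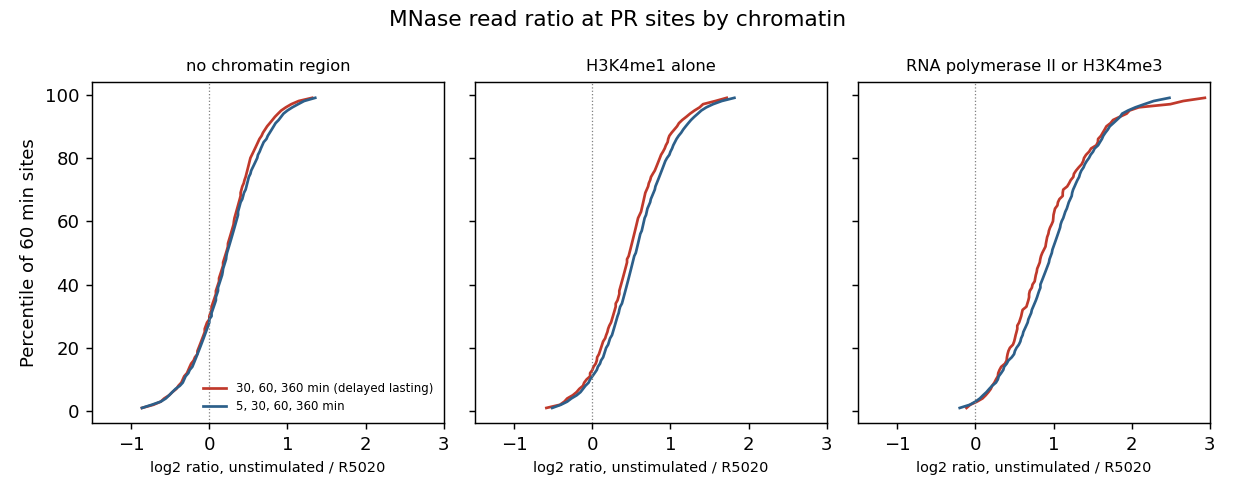
Distribution of the log2 ratio of unstimulated to R5020 MNase reads at 60 min PR sites, from the authors' deposited table, as percentile of sites against ratio, in 3 panels by chromatin. The delayed lasting and persistent sites nearly coincide without a chromatin region (medians 1.16 and 1.17) and lie apart in H3K4me1 alone (1.39 and 1.47) and in RNA polymerase II or H3K4me3 regions (1.81 and 1.97).

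The ratios of the delayed lasting sites differed by chromatin, in the same order as over all 60 min sites. From no region to H3K4me1 alone to polymerase or H3K4me3, medians taken from the authors' deposited table went from 1.16 to 1.39 to 1.81, against 1.14, 1.42 and 1.94 over all 60 min sites. Ratios above 2 stood at 3.61%, 12.4% and 37.8% of these sites in the authors' deposited table, against 3.63%, 15.8% and 47.0% of all 60 min sites. The first share is thus at the background, and the other 2 are below it. Unstimulated reads in the authors' deposited table came to 26.2, 36.4 and 38.0 per 100 bp, and after R5020 it was 22.6, 26.4 and 20.2. Over all 60 min sites the authors' deposited table had 25.2, 35.3 and 37.7 before and 22.0, 25.2 and 19.8 after R5020. In both sets the sites in polymerase or H3K4me3 regions had the highest density of the 3 classes before hormone and the lowest after it. Delayed lasting sites in H3K4me1 alone had 1.41 as median in the authors' deposited table where the H3K4me1 region also held a 5 min site (443 sites), and 1.38 where it did not (1007 sites).

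The widest delayed lasting sites at 60 min were in H3K4me1 regions in 5 of 10 cases and in none of the 3 kinds of region in the other 5. Over all delayed lasting sites these shares were 35.0% and 63.9%, and over all merged sites 42.1% and 56.7%. The widest, chr10:130058179-130059221, measured 462 bp, then 1042 bp and then 564 bp at the 3 times, and its nearest 5 min site was 118.9 kb away. It overlapped no chromatin region, and reads in the authors' deposited table went from 597 to 296. The choice of the 10 by their 60 min width favours sites that are widest at that time. The site chr8:102635924-102636948 was the only one of the 10 wider at 360 min (1249 bp) than at 60 min (1024 bp). Its read numbers in the authors' deposited table, 975 and 872, were also the highest of the 10. Next came chr11:113183262-113184272 (1010 bp at 60 min), chr17:74442510-74443504 (994 bp) and chr8:141007221-141008153 (932 bp). On chromosome 11, chr11:113210641-113211484 (843 bp) was a second site of that chromosome, and both were in H3K4me1 regions, with ratios of 1.5 and 1.46 in the authors' deposited table.

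The 4 others were chr14:50125080-50125967 (887 bp), chr13:31317368-31318235 (867 bp), chr1:227945621-227946472 (851 bp) and chr16:88587825-88588664 (839 bp). The chromosome 14 site was the only one of the 10 with more reads after R5020, 235 against 200 in the authors' deposited table, and it had a persistent site 0.713 kb away. The chromosome 16 site, in H3K4me1, went from 301 to 151 reads in the authors' deposited table.

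The 5 highest MNase ratios among delayed lasting sites with at least 50 unstimulated reads were all within polymerase regions, and 4 of the 5 were also in H3K4me3 regions. They were led by chr15:45003491-45003967, in all 3 kinds of region, with 628 reads before and 70 after R5020 in the authors' deposited table, a ratio of 8.97. Its widths at the 3 times were 233, 476 and 204 bp, and it was 410.6 kb from the nearest 5 min site. The others were chr15:91478668-91478994 (8.64), chr17:16556961-16557192 (7.9), chr22:17639732-17639994 (7.27) and chr1:26663052-26663308 (6.64), with the ratio from the authors' deposited table in parentheses. At each of these 4, at most 95 reads before R5020 and 11 or fewer after it stood behind the ratio in the authors' deposited table. The lowest ratio, 0.31 in the authors' deposited table, was at chr1:215779985-215780440, where reads went from 56 to 181. Among sites with at least 50 unstimulated reads, it was followed by chr8:115793739-115794076 (0.47), chr10:75974128-75974526 (0.48), chr17:68446130-68446408 (0.5) and chr7:63939181-63939679 (0.5) in the authors' deposited table. Without that minimum, 15 delayed lasting sites had a ratio below 0.5 in the authors' deposited table, so some with fewer reads are not named. None of the 5 named sites with low ratios overlapped a region of the 3 chromatin lists. That also held for 63.9% of all delayed lasting sites and 56.7% of all merged sites.

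Among delayed lasting sites in all 3 kinds of region, the widest at 60 min was chr12:33050017-33050671, with 358, 654 and 281 bp at 30, 60 and 360 min. Its reads in the authors' deposited table were 245 and 135. The next was chr16:85812328-85812938 (610 bp at 60 min), which had a 5 min site 100 bp away and a persistent site 0.066 kb away. Its ratio in the authors' deposited table was 1.32, the lowest of the 5. The others were chr6:30640075-30640652 (577 bp, ratio 2.54 in the authors' deposited table), chr15:83679498-83680072 (574 bp, 1.91) and chr17:43138772-43139271 (499 bp, 1.5). In each of the 5 the site was wider at 60 min than at 30 or 360 min. The 5 were chosen by their 60 min width, which favours that order.

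The number of delayed lasting sites rests on the authors' thresholds, which no source used here gives. From the wider 50% of each list it was 1801, with 40.3% in H3K4me1 regions, against 65.4% of the 3447 persistent sites found the same way.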

How the data were processed

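The data were 5 lists of PR sites and 3 lists of chromatin regions (chromosome, start, end) deposited by the authors, 1 per sample, on build hg19 (per the file headers). Neither aligner, peak caller, thresholds nor sequencing depth is given in the sources used here. A table deposited by the authors gives, per the file headers, a normalized MNase read number at each 60 min site in unstimulated and R5020-treated cells. These whole numbers were handled as a score, and the authors' deposited ratio is the first divided by the second. The MNase libraries are not among the 8 samples.

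Sites were merged and called overlapping from 1 bp. Widths are end minus start, and distances are bases between regions. The merging and overlap code was tested on simulated data. Shares have exact 95% intervals. Alternatives varied the overlap rule, site and region width, chromosomes, distances and read minimums. Named sites were the 10 widest at 60 min, the 5 highest and 5 lowest MNase ratios from 50 unstimulated reads, and the 5 widest in all 3 kinds of region. The members and lists were chosen with earlier results of these data known. Sequence motifs and genes were not analysed here, since the gene tables used are of another build. Python 3.11.15, NumPy 2.4.6, pandas 2.3.3, SciPy 1.17.1 and Matplotlib 3.10.9 were used.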

Additional observations from a re-analysis of the deposited data

How the results depend on the processing

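The 12 alternatives of the 2 differences from persistent sites kept their direction. Of all 46 alternatives over 8 results, 28 stayed within the counting interval (for the number of sites, within 1.5 times). The number of delayed lasting sites was 4258 to 4651 under 5 alternatives and 1801 with the wider 50% of each PR list, where a narrower 5 min site no longer counts. The H3K4me1 share was 39.9% with regions within 1 kb, 28.2% with the wider 50% of chromatin regions, 36.7% with a reciprocal overlap of 50%, 32.5% without sites that have a 0 or 5 min site within 1 kb, and 40.3% with the wider 50% of each PR list. For midpoints, regions within 1 kb and wider regions, the H3K4me3 share was 2.51%, 6.04% and 2.30%, and the RNA polymerase II share 3.01%, 8.17% and 2.84%. With wider PR sites the latter was 5.22%. The H3K4me1 difference from persistent sites was 20.3 percentage points with wider chromatin regions and 23.6 to 25.5 under 5 other alternatives. The median MNase ratio in the authors' deposited table was 1.27 from 50 unstimulated reads. Within chromatin classes the mean log2 difference in MNase ratio, persistent minus delayed, was 0.072 in place of 0.15. A persistent site lay within 5 kb of 16.4% and within 50 kb of 52.1%. The alternatives on receptor motifs were not run, since they need a genome of the files' build. No paired analysis was possible because each group has 1 sample and no result comes from a test.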

Other observations

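Outside the 3 kinds of chromatin region, the unstimulated MNase read density was higher in both classes compared that were not listed at 5 min than in both that were. Median values from the authors' deposited table were 26.2 reads per 100 bp at delayed lasting sites and 28.4 at sites of 60 and 360 min only, against 24.0 at persistent sites and 22.2 at sites of 5, 30 and 60 min only. After R5020 the authors' deposited table had 22.6, 24.2, 20.1 and 20.8 for the same 4 classes. Within H3K4me1 regions without polymerase or H3K4me3, the 4 unstimulated medians in the authors' deposited table were 36.4, 36.6, 35.4 and 32.3. In RNA polymerase II or H3K4me3 regions the authors' deposited table had 38.0, 33.5, 38.5 and 38.3. There both classes not listed at 5 min were below both that were, but 38.0 (238 sites) and 38.3 (239 sites) were nearly equal. The 33.5 came from 125 sites. Differences between these classes have no replicate check.

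In 5 equal groups of delayed lasting and persistent sites by unstimulated read density, the H3K4me1 share of delayed lasting sites went from 15.9% (13.7 to 18.3%) in the lowest to 54.3% (50.9 to 57.7%) in the highest. The persistent sites went from 30.7% (28.6 to 32.8%) to 86.3% (84.7 to 87.7%), and they had the higher share in each group. The median ratio in the authors' deposited table went from 1.05 to 1.41 at delayed lasting sites and from 1.13 to 1.62 at persistent sites. The unstimulated value is the numerator of that ratio.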
